A study of Zea mays with 33 samples.

Results

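In the B73 line of maize, 129 of 44146 gene models with a Zm00001d ID were concentrated in the adult internode. They were chosen on their read counts alone. A gene was kept when its lowest level in the 3 internode libraries was at least 20 CPM (counts on the gene per 1000000 reads on genes in the library) and at least 3 times its highest level in the other 30 libraries. With these thresholds 133 genes passed, and 4 of them, Zm00001d032776, Zm00001d043477, Zm00001d020531 and Zm00001d047276, were left out by name. These 4 had mean internode levels of 584 to 1659 CPM and ratios of 3.999 to 5.49. The internode values were thus used to select the genes, and every level of the internode against another tissue is given below as a description, without a test.

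The libraries were made from wild-type B73 plants, 3 per tissue for 11 tissues. All 33 share the code WW, which the labels do not spell out, and no treatment is given for any of them. PS_IN1 is the first internode below the ear, taken just above its lower node at pollen shed (PS) from greenhouse plants. At the same stage were sampled the not yet pollinated ear, without its tip and base (PS_EAR), the growing silks under the husk (PS_SILK), tassel parts bearing fresh pollen (PS_TAS) and the blade, freed of its midrib, of the last ligulated leaf (PS_LF). Young greenhouse plants at stage V2 gave the white, immature parts of the inner leaves (V2_LF-I) and an expanded leaf (V2_LF). Seedlings at 4 days after sowing, grown on perlite without direct light, gave roots (DAS4_R) and the part labelled hypocotyl (DAS4_HY), and field plants gave seeds at 12 and 35 days after pollination (DAP12_S and DAP35_S). A replicate was 1 plant, a pool of 3 plants for DAS4_R and DAS4_HY, or a pool of seeds from 1 ear. Growth conditions changed together with the tissue between these sets of plants, and the effects of tissue and growth condition cannot be told apart there. The internode, ear, leaf and tassel of replicate 1 were harvested on 25 November and those of replicates 2 and 3 on 28 November.

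An internode is the segment of the stem between a pair of nodes. In grasses it grows from an intercalary meristem at its base, and its cells elongate and differentiate as they are displaced upwards. An adult maize internode holds many vascular bundles set in pith, with a rind of thick-walled cells whose walls are rich in cellulose and lignin, and it carries water upwards and sugars to the ear. None of the 129 IDs had a name in the reference table used here, which belongs to another assembly. The study's supplement listed Gene Ontology terms for 8 members, for 6 of them in both of its lists. Only 1 of these 6 had a term in common. Over all genes in both lists, 1403 of 1758 had no term in common, so these terms were not used. The genes are therefore given by ID and without a role. The internode could not be checked against marker genes of its cell types. In whole tissues, fewer cells of a type and less RNA per cell cannot be told apart.

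The libraries held 15.8 to 42.9 M reads on genes, with 23.9 to 28.7 M in the internode, where 1 read in the shallowest library was worth 0.0419 CPM. The same thresholds selected 859 genes in the tassel, 179 in the older seed, 151 in the roots, 106 in the silks, 64 in the younger seed, 45 in the ear, 40 in V2_LF-I, 35 in PS_LF, 30 in V2_LF and 15 in the hypocotyl, so that the internode had fewer such genes than the tassel, the older seed and the roots.

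**Figure D1:**
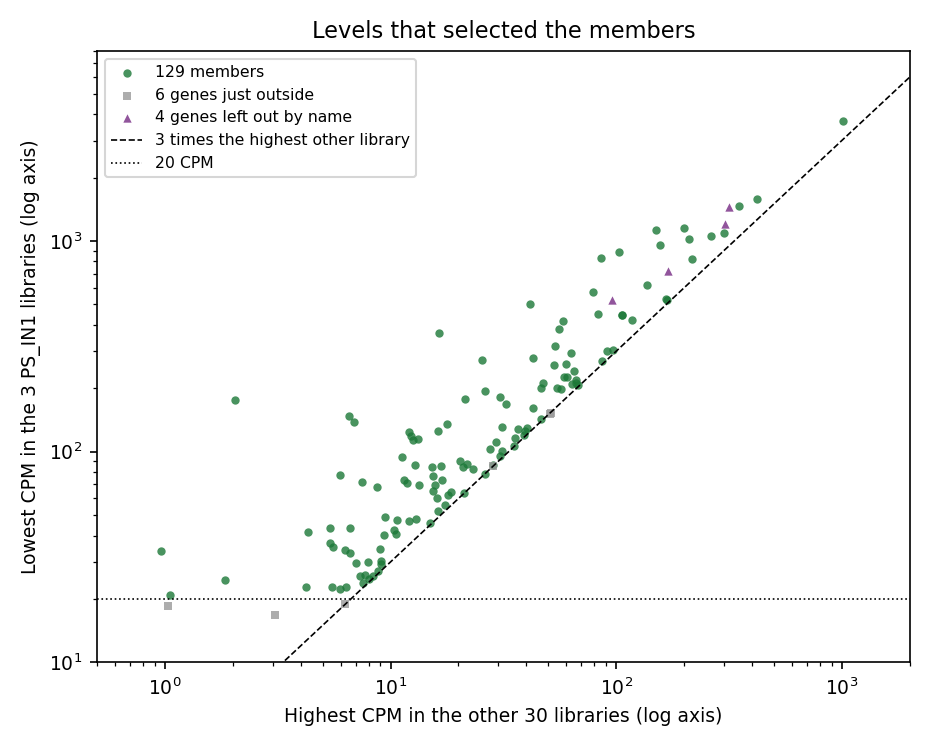
Lowest CPM in the 3 PS_IN1 libraries (vertical, log axis) against the highest CPM in the other 30 libraries (horizontal, log axis), for the 129 members, the 4 genes left out by name and 6 genes just outside the thresholds, which are drawn as lines. Most members lie close to the line of 3 times the highest other library, with a median ratio of 4.22, and Zm00001d015216 lies farthest from it at 86.3.

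Among the members, mean levels in the internode ran from 23.9 to 4268 CPM with a median of 129 CPM. In all, 10 members reached 1000 CPM and 80 reached 100 CPM. CPM is not corrected for the length of the gene, so an order of genes by CPM is an order of their reads and not of their transcripts. The ratio of the lowest internode library to the highest other library had a median of 4.22. It was at least 4 for 72 members, at least 5 for 49 and at least 10 for 11. Between tissue means, the internode stood 3.50 to 251 times above the tissue that came next, with a median of 6.08.

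Just inside the ratio threshold were Zm00001d007173 (3.02), Zm00001d041951 (3.01) and Zm00001d008817 (3.01). Just outside it were Zm00001d034212 (2.997), Zm00001d042030 (2.99) and Zm00001d021823 (2.98). At the threshold on level, Zm00001d013560, Zm00001d023420 and Zm00001d029921 were inside with lowest internode levels of 21.0, 22.2 and 22.8 CPM, and Zm00001d018475, Zm00001d029232 and Zm00001d013559 were outside with 18.9, 18.5 and 16.8 CPM. Genes on either side of a threshold thus had nearly the same value of the measure it was set on.

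Together the members took 3.87% ± 0.113 (SD, n = 3) of the reads on genes in the internode, from 3.78% to 3.99% in single libraries. In the roots they took 0.443% ± 0.0236 (SD, n = 3), in V2_LF-I 0.424% ± 0.0515 (SD, n = 3) and in the hypocotyl 0.320% ± 0.0255 (SD, n = 3). The ear (0.234%), the silks (0.217%), the tassel (0.202%) and the younger seed (0.179%) followed as means of 3 libraries, and PS_LF (0.155%), V2_LF (0.119%) and the older seed (0.110%) were lowest. Roots and V2_LF-I overlapped, with 0.416% to 0.461% and 0.365% to 0.459%, and within PS_LF the libraries spread from 0.119% to 0.210%. The member with the most reads made up 11.04% of the members' internode reads and the first 10 made up 42.1%. An order of tissues by share of reads is not an order against all genes. The members' median level was 2.84 CPM in V2_LF, 3.88 in PS_LF, 2.13 in the older seed, 3.64 in the ear and 1.56 in the silks. Over all gene models with a read, the median was 0.790, 1.31, 1.83, 3.48 and 1.87 CPM in the same tissues.

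**Figure D2:**
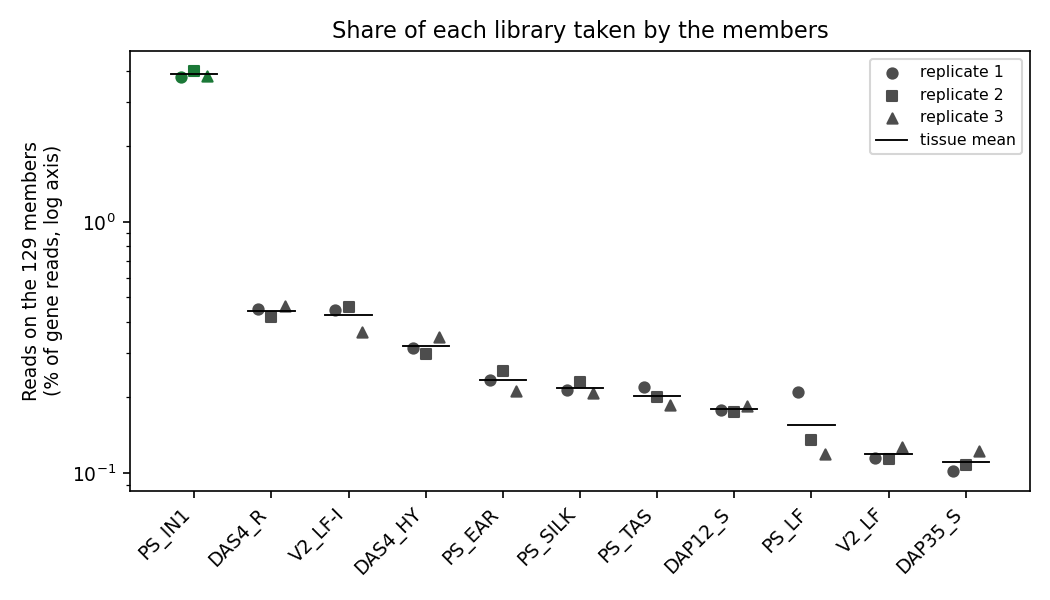
Reads on the 129 members as a percentage of all reads on genes (log axis) in each of the 33 libraries, by tissue and replicate, with the tissue mean as a line. The 3 internode libraries lie between 3.78% and 3.99%, and no library of another tissue exceeds 0.461%.

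The member with the highest CPM was Zm00001d049541, with 3730, 4429 and 4643 CPM in internode replicates 1, 2 and 3. It was present in all other tissues as well, from 104 CPM ± 39.1 (SD, n = 3) in the ear to 922 CPM ± 80.2 (SD, n = 3) in the roots. Zm00001d036293, with 1587, 1813 and 1654 CPM, also had the roots as its next tissue, at 391 CPM ± 25.1 (SD, n = 3), and its lowest mean was 28.8 CPM, in V2_LF. Both genes were thus read in every tissue, with a maximum in the internode. Zm00001d015459 (1018, 1227 and 1491 CPM), Zm00001d031275 (1251, 1227 and 959 CPM) and Zm00001d023735 (1109, 822 and 924 CPM) had roots next too, at means of 202, 126 and 187 CPM. Of these, Zm00001d031275 had no read in the silks and was without a read in 5 of the other 30 libraries.

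A pair of members of high CPM had the ear next. Zm00001d048178 stood at 1467, 2149 and 1748 CPM in the internode, at 320 CPM ± 33.6 (SD, n = 3) in the ear and at 1.25 CPM in V2_LF. Zm00001d042809 had 1095, 1536 and 1420 CPM in the internode and 257 CPM ± 38.0 (SD, n = 3) in the ear. Zm00001d042809 was lowest in the older seed, at 19.1 CPM, and had reads in all 33 libraries.

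For Zm00001d005775 and Zm00001d051161 the next tissue was V2_LF-I. The former had 1134, 1422 and 1139 CPM in the internode against 138 CPM ± 14.6 (SD, n = 3) in V2_LF-I and 0.208 CPM in the older seed. The latter had 888, 1262 and 1144 CPM against 99.5 CPM ± 3.09 (SD, n = 3), and 4.39 CPM in the older seed. Both genes were lowest in the older seed.

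The tassel came next for Zm00001d011063 and Zm00001d015905. Zm00001d011063 had 1499, 1147 and 1467 CPM in the internode, 141 CPM ± 52.0 (SD, n = 3) in the tassel and 1.06 CPM in the silks. Zm00001d015905 had 1055, 1105 and 1141 CPM in the internode, with a coefficient of variation of 3.95%, and 207 CPM ± 57.8 (SD, n = 3) in the tassel. The hypocotyl came next for Zm00001d013719, with 827, 1053 and 1074 CPM in the internode, 72.8 CPM ± 15.04 (SD, n = 3) in the hypocotyl and no read in 13 of the other 30 libraries. These 12 members of the highest CPM thus had 5 different next tissues.

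Over all members, the roots had the next highest mean for 35 and V2_LF-I for 33, followed by the ear (13), PS_LF (12), the tassel (12), the hypocotyl (11), the silks (6), the younger seed (4), V2_LF (2) and the older seed (1). The median level in the next tissue was 30.3 CPM for the 35 members with roots next and 21.0 CPM for the 33 with V2_LF-I next. It was 27.5 CPM for the 13 with the ear next, 22.5 CPM for the 12 with the tassel next and 8.54 CPM for the 12 with PS_LF next. The lowest mean was most often counted for the older seed (29 members), the ear (21), the silks (20) and V2_LF (19), and for no member in the hypocotyl. A member at 0 CPM in several tissues was counted only for the first of them in the order of the samples. Zm00001d028599, for example, had no read in ear or silks and was counted for the ear. The order of these last places thus depends partly on how ties were counted. By CPM of the library, roots and the immature leaf were the most frequent second place. The older seed was the most frequent last place as counted here. CPM takes no account of TMM scaling, whose factors were 1.29 to 1.35 in the roots. They were 0.993 to 1.10 in V2_LF-I and 0.479 to 0.481 in V2_LF, so places can change under that scaling. The same order over all genes was not computed.

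Most members were not restricted to the internode. A read was found in all 33 libraries for 79 members, and in at least 1 library of each tissue for 102. The mean was at least 1 CPM in all 10 other tissues for 47 members. By tissue, 118 members reached a mean of 1 CPM in the hypocotyl, 114 in the roots and 106 in V2_LF-I, against 71 in the silks and 80 in the older seed. Over all gene models with a read, the median of the mean levels was 4.41 CPM in the hypocotyl, 4.07 in the roots and 2.87 in V2_LF-I. It was 1.87 CPM in the silks and 1.83 CPM in the older seed. The share of all genes at 1 CPM was not computed, so these counts are not read as a trait of the members. Zm00001d002378 was the single member that stayed under 1 CPM in each of the other 30 libraries.

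**Figure D3:**
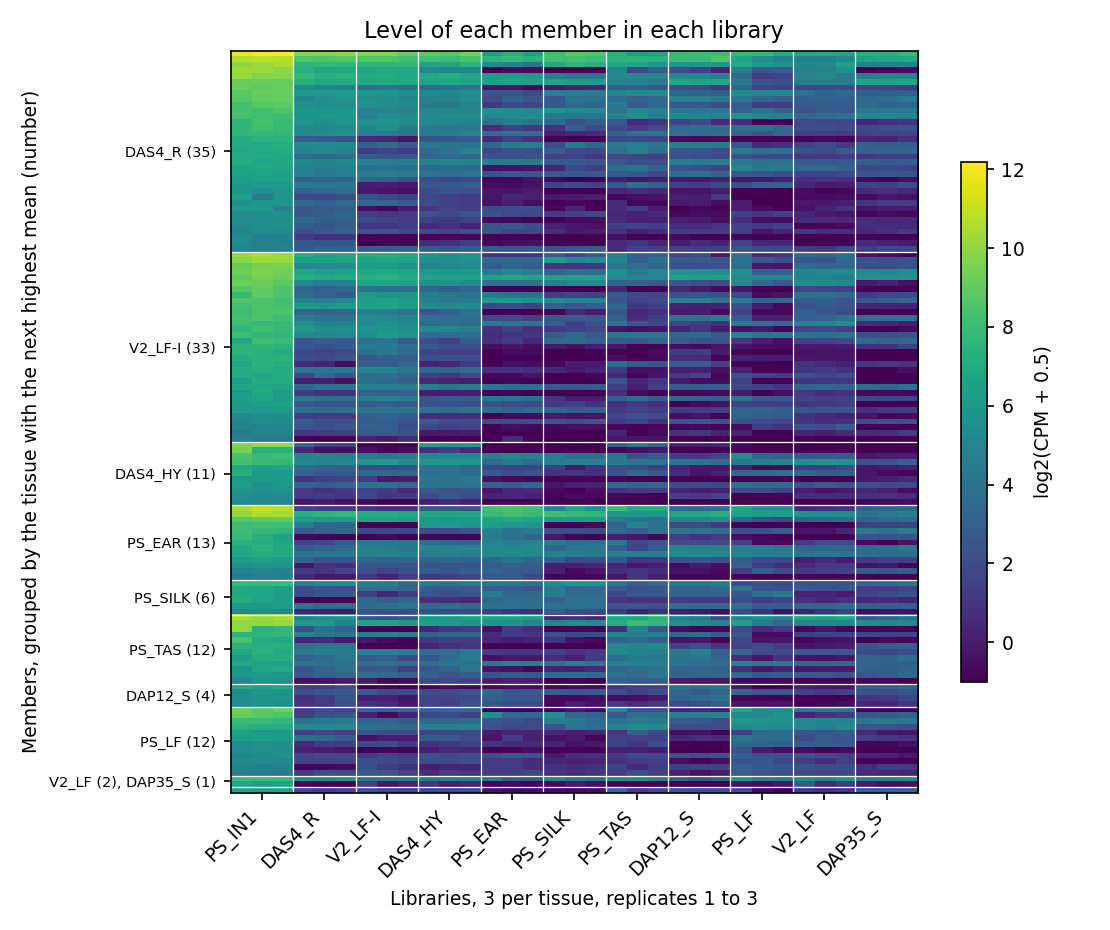
log2(CPM + 0.5) of the 129 members (rows) in the 33 libraries (columns, 3 per tissue, replicates 1 to 3), with rows grouped by the tissue of the next highest mean and ordered by internode level within a group. The internode columns are brightest in every row by construction, and the roots (35 members) and V2_LF-I (33 members) form the largest groups.

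Zm00001d015216 had 742, 176 and 177 CPM in internode replicates 1, 2 and 3 and at most 2.04 CPM elsewhere, in a hypocotyl library. It had no read in 16 of the other 30 libraries, and its ratio of 86.3 was the highest of the set. Zm00001d002378 had 38.1, 41.6 and 33.6 CPM and at most 0.957 CPM elsewhere, for a ratio of 35.2, with no read in 19 of the other 30 libraries.

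Zm00001d026268, with 148, 171 and 176 CPM, and Zm00001d028599, with 437, 527 and 368 CPM, had ratios of 22.6 and 22.5. Both were next highest in V2_LF-I, at 6.03 CPM ± 0.821 (SD, n = 3) and 13.5 CPM ± 2.71 (SD, n = 3). Zm00001d052191 had 139, 173 and 174 CPM and a ratio of 20.2 to a root library. For these 3 genes the level next to the internode thus came from the immature leaf or the roots.

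Zm00001d013560 (29.1, 21.0 and 21.5 CPM) had a ratio of 19.9 and Zm00001d013722 (39.3, 27.4 and 24.6 CPM) a ratio of 13.4. Both lay near the lower threshold on level, and had no read in 19 and 14 of the other 30 libraries. Zm00001d044504 had 120, 77.6 and 94.5 CPM and a ratio of 13.0 to a V2_LF library with 5.97 CPM. That value came from replicate 1 of V2_LF, where the mean was 2.98 CPM ± 2.63 (SD, n = 3).

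The coefficient of variation over the 3 internode libraries had a median of 13.6% for the members and of 9.69% for the 9305 genes with a lowest internode level of at least 20 CPM. It was under 10% for 39 members and over 50% for 5. The most even were Zm00001d043800 (128, 131 and 135 CPM, 2.73%), Zm00001d027593 (203, 216 and 202 CPM, 3.82%) and Zm00001d015905 (3.95%).

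The most uneven was Zm00001d031152, with 1000, 169 and 204 CPM in replicates 1, 2 and 3 and a coefficient of variation of 103%. It was followed by Zm00001d015216 (89.4%) and by Zm00001d020651, with 87.6, 22.9 and 57.5 CPM (57.9%). Zm00001d003626 (320, 145 and 124 CPM) and Zm00001d041732 (153, 67.4 and 65.1 CPM) were the other members over 50%. In all 5 of these genes the highest value was that of replicate 1.

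Some members were neighbours in the order of the IDs, with no other gene model between them. Zm00001d032467 had 82.6, 138 and 150 CPM in the internode and Zm00001d032468 had 62.5, 121 and 123 CPM, so that replicate 1 was lowest in both. Their log2 levels had a Pearson correlation of 0.99 over the 33 libraries and of 0.99 over the 30 without the internode. Zm00001d037768 and Zm00001d037769 correlated at 0.92 over all libraries and 0.84 without the internode, and Zm00001d047424 and Zm00001d047425 at 0.90 and 0.74. Zm00001d038177 and Zm00001d038178 correlated at 0.75 and 0.42. With 2 gene models between them, Zm00001d013719 and Zm00001d013722 correlated at 0.78 and 0.29. With 3 between, the values were 0.46 and -0.21 for Zm00001d051156 and Zm00001d051161. They were 0.50 and 0.04 for Zm00001d038016 and Zm00001d038020, also with 3 between. Correlations of neighbouring genes outside the set were not computed. These are descriptions over libraries that share their tissues, and the values over all 33 contain the internode maximum used for the selection. Reads that fit both copies of a gene are not assigned to either, and whether neighbouring members are similar in sequence was not tested.

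The members were then examined within the other tissues, where the rule treats the libraries of a pair alike on the scale of CPM. The tests below use TMM scaling, whose factors differ between tissues. On that scale the rule's limit on the other libraries is not the same for both tissues of a pair. The 10 other tissues were arranged into 5 pairs without a library in common, and edgeR's quasi-likelihood test was applied to the 28997 genes that passed the filter on low counts. All 129 members passed it, also when the internode libraries were left out of the filter. A gene was called at a Benjamini-Hochberg adjusted p under 0.05 over all genes tested, and each count of members is given beside the percentage of all genes called in the same direction. Levels are in CPM of the library, and fold changes are on the log2 scale after TMM scaling with their standard errors.

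Among the 5 pairs, the count farthest above the background was found between the leaves of V2 plants. In V2_LF-I, 61 of 129 members (47.3%) were higher than in V2_LF, against 34.2% of all genes, and 22 (17.1%) were lower, against 31.3% of all genes. The median log2 fold change was 0.72 for the members and 0 for all genes. With library sizes in place of TMM, 91 members (70.5%) were higher and 10 (7.75%) lower, against 56.9% and 14.0% of all genes, on a scale where the median of all genes moved to 1.09. TMM factors of V2_LF were 0.479 to 0.481, the lowest of the series.

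Zm00001d048608 had 13.8, 17.7 and 10.7 CPM in V2_LF-I and 0.291, 0.350 and 0.301 CPM in V2_LF, a log2 fold change of 4.35 ± 0.47 (SE) with an edgeR adjusted p of 1.48e-08. Zm00001d007935 had 21.5, 20.6 and 12.8 CPM against 0.437, 0.438 and 0.502 CPM (4.18 ± 0.43, edgeR adjusted p = 2.17e-09). Zm00001d023420 had 1.41, 0.739 and 2.05 CPM against 0.0971, 0.0438 and 0.0502 CPM (3.31 ± 0.63, edgeR adjusted p = 5.15e-05). In these 3 genes the libraries of the immature leaf all lay above those of the expanded leaf.

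In the opposite direction, Zm00001d011063 had 6.33, 4.55 and 6.38 CPM in V2_LF-I and 104, 89.1 and 114 CPM in V2_LF, a log2 fold change of -5.29 ± 0.46 (SE) with an edgeR adjusted p of 1.08e-10. Zm00001d002940 had 0.283, 0.512 and 0.580 CPM against 3.64, 5.91 and 5.42 CPM (-4.51 ± 0.50, edgeR adjusted p = 8.85e-09). Zm00001d047913 had 8.81, 8.59 and 7.02 CPM against 35.1, 33.8 and 30.8 CPM (-3.16 ± 0.22, edgeR adjusted p = 1.31e-12). The immature and expanded leaf did not overlap in any of the 3, and Zm00001d011063, among the members of the highest internode CPM, was thus also well read in the expanded leaf. For Zm00001d002940, reads on the opposite strand outnumbered its own reads outside the internode, 38555 against 3739 in the 30 other libraries, and its values are uncertain for that reason.

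Between the seedling organs, 40 members (31.0%) were lower in the hypocotyl than in the roots, against 22.7% of all genes, and 24 (18.6%) were higher, against 20.7% of all genes. The median log2 fold change was -0.37 for the members and -0.02 for all genes.

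Zm00001d013719 had 86.0, 56.4 and 76.1 CPM in the hypocotyl and 8.70, 2.66 and 2.15 CPM in the roots (3.97 ± 0.43, edgeR adjusted p = 9.23e-08). Zm00001d033404 had 1.19, 1.28 and 0.827 CPM against at most 0.0346 CPM in a root library (5.43 ± 0.56, edgeR adjusted p = 9.20e-09). Zm00001d044504 had 1.499, 0.604 and 0.935 CPM against at most 0.0933 CPM (4.19 ± 0.84, edgeR adjusted p = 0.000247). All hypocotyl libraries lay above all root libraries for these genes, and the last pair of genes had few reads or none in the roots.

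Higher in the roots was Zm00001d021656, with 15.02, 19.0 and 17.6 CPM there and 0.765, 1.28 and 1.65 CPM in the hypocotyl (-3.80 ± 0.30, edgeR adjusted p = 1.75e-09). Zm00001d003052 had 2.08, 2.04 and 3.77 CPM in the roots and at most 0.151 CPM in the hypocotyl (-4.65 ± 0.52, edgeR adjusted p = 3.95e-08). Zm00001d013722 had 1.84, 1.24 and 1.38 CPM in the roots and at most 0.101 CPM in the hypocotyl (-4.33 ± 0.69, edgeR adjusted p = 1.10e-05). Zm00001d013719 and Zm00001d013722, which lie only a few gene models apart in the order of the IDs, thus took opposite directions in the seedling.

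**Figure D4:**
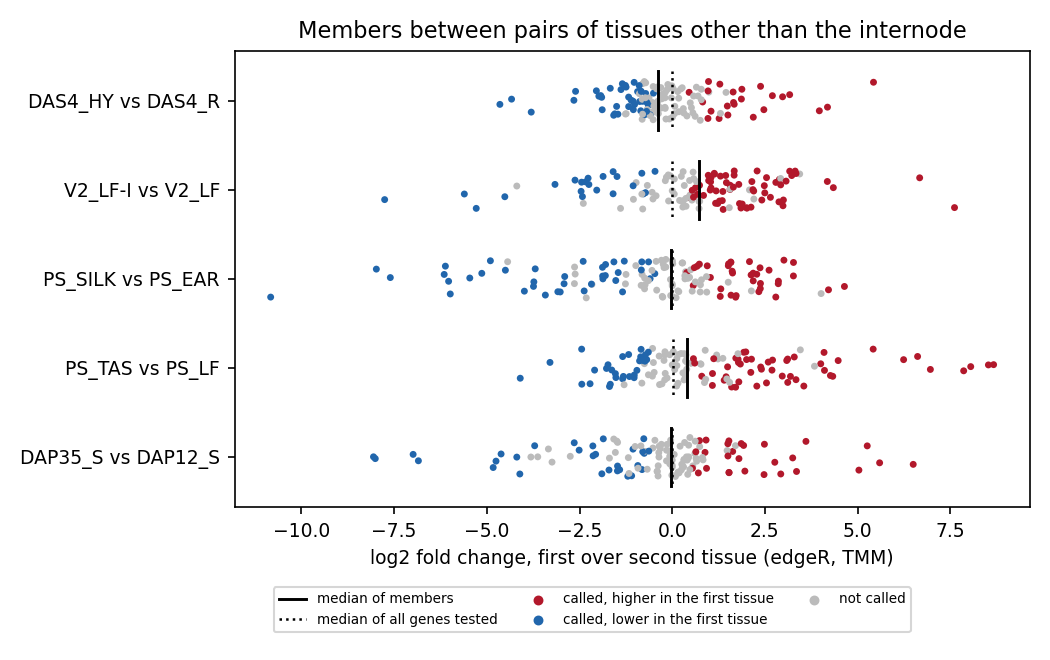
log2 fold change (edgeR, TMM) of the 129 members in 5 pairs of tissues other than the internode, first over second tissue, with points coloured where the adjusted p was under 0.05 and lines at the median of the members (solid) and of all genes tested (dotted). The members' median lies at 0.72 for V2_LF-I over V2_LF and at -0.37 for hypocotyl over roots, and near 0 for silks over ear and for the seeds, and the most extreme points include members without a read in 1 tissue, whose fitted values depend on the prior count of the fit.

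Between tassel and adult leaf blade, 50 members (38.8%) were higher in the tassel, against 35.3% of all genes, and 29 (22.5%) were lower, against 33.0% of all genes. The median log2 fold change was 0.41 for the members and 0.01 for all genes. With library sizes alone 43 (33.3%) were higher and 39 (30.2%) lower, against 30.4% and 39.3% of all genes, whose median was -0.16. Without PS_LF replicate 1, whose values are described below, 61 (47.3%) were higher and 23 (17.8%) lower, against 35.7% and 30.9% of all genes.

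Zm00001d018742 had 8.30, 28.9 and 15.4 CPM in the tassel and at most 0.0860 CPM in a leaf library (8.67 ± 0.61, edgeR adjusted p = 2.62e-11). Zm00001d002590 had 12.6, 6.15 and 4.93 CPM against at most 0.0372 CPM (8.53 ± 0.80, edgeR adjusted p = 6.06e-10). Zm00001d013719 had 8.90, 24.0 and 9.08 CPM against at most 0.143 CPM (8.05 ± 0.69, edgeR adjusted p = 6.84e-10). These 3 internode genes thus had few reads or none in the leaf blade and were read in every tassel library.

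Higher in the leaf was Zm00001d038177, with 9.46, 1.93 and 1.07 CPM in PS_LF replicates 1, 2 and 3 and 0.823, 0.355 and 0.625 CPM in the tassel (-2.44 ± 0.54, edgeR adjusted p = 0.000285). Its neighbour Zm00001d038178 had 4.21, 2.71 and 1.83 CPM in the leaf and 0.860, 0.0788 and 0.331 CPM in the tassel (-2.44 ± 0.68, edgeR adjusted p = 0.00268). Zm00001d044074 had 0.172, 1.93 and 1.204 CPM in the leaf and 0.112, 0.0394 and 0.110 CPM in the tassel (-3.30 ± 0.69, edgeR adjusted p = 0.000190). Leaf and tassel libraries did not overlap for any of the 3, though replicate 1 of the leaf stood apart for the first and the last of them, in opposite directions.

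The silks and the ear divided the members evenly, and near the background. In the silks, 36 members (27.9%) were higher than in the ear, against 24.7% of all genes, and 38 (29.5%) were lower, against 27.4% of all genes, with medians of -0.04 and -0.02 on the log2 scale. With library sizes alone, 24 (18.6%) were higher and 48 (37.2%) lower, against 14.2% and 45.8% of all genes, whose median was -0.50.

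The widest difference was that of Zm00001d018742, with 86.5, 66.3 and 65.8 CPM in the ear and a level of 0.0827 CPM in a single silk library, the others having no read (-10.83 ± 0.65, edgeR adjusted p = 7.07e-12). Zm00001d052191 had 0.982, 2.29 and 1.28 CPM in the ear and no read in the silks, at least 42.0-fold lower there against a floor of 3 reads over the 3 silk libraries (edgeR adjusted p = 2.06e-08). Zm00001d031152 had 0.258, 1.95 and 1.13 CPM in the ear and no read in the silks, at least 30.8-fold lower by the same floor (edgeR adjusted p = 0.0171). Its edgeR adjusted p was 0.0598 without PS_EAR replicate 2 and 0.0507 without PS_SILK replicate 2. These 3 genes were thus found in the ear and hardly or not in the silks.

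Higher in the silks were Zm00001d041951, with 2.71, 3.64 and 2.52 CPM against 0.207, 0.158 and 0.290 CPM in the ear (4.21 ± 0.37, edgeR adjusted p = 4.45e-10), and Zm00001d017852, with 10.99, 11.4 and 8.40 CPM against 1.34, 2.11 and 0.958 CPM (3.27 ± 0.45, edgeR adjusted p = 1.09e-06). Zm00001d021371 had 0.790, 3.20 and 2.15 CPM against 0.258, 0.290 and 0.319 CPM (3.27 ± 0.38, edgeR adjusted p = 5.77e-08). The ear and silk libraries did not overlap in any of the 3.

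The seeds also divided the members close to the background. Between 35 and 12 days after pollination, 28 members (21.7%) were higher in the older seed, against 21.5% of all genes, and 30 (23.3%) were lower, against 22.4% of all genes, with medians of -0.04 and 0. With library sizes alone, 18 (13.95%) were higher and 54 (41.9%) lower, against 10.6% and 48.2% of all genes, whose median was -0.61. RNA of the older seed was extracted by another method than that of the younger seed, and age and extraction cannot be told apart.

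Zm00001d026131 had 6.06, 4.68 and 6.06 CPM in the older and 0.277, 0.260 and 0.120 CPM in the younger seed (5.26 ± 0.46, edgeR adjusted p = 1.81e-09). Zm00001d007935 had 1.23, 1.25 and 2.08 CPM against 0.237, 0.148 and 0.320 CPM (3.25 ± 0.50, edgeR adjusted p = 9.32e-06), and Zm00001d024630 had 1.49, 2.08 and 2.08 CPM against 0.435, 0.519 and 0.160 CPM (2.93 ± 0.68, edgeR adjusted p = 0.000977). All libraries of the older seed lay above those of the younger seed for these genes. Zm00001d048608 had 1.98, 2.08 and 0.480 CPM in the younger seed and no read in the older, at least 34.9-fold lower (edgeR adjusted p = 8.07e-06). Zm00001d038178 had 1.66, 2.63 and 0.0800 CPM and no read in the older seed, at least 33.7-fold lower (edgeR adjusted p = 0.000851). Zm00001d031275 had 3.76, 2.52 and 0.760 CPM in the younger seed and at most 0.126 CPM in the older (-4.62 ± 1.31, edgeR adjusted p = 0.00609). For these last 3 genes replicate 3 of the younger seed was the lowest, and the groups did not overlap.

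Members with no read in all 3 libraries of 1 tissue of a pair numbered between 0 and 9, and with these at their lower bound the medians were -0.38, 0.70, -0.05, 0.41 and -0.07 for hypocotyl over roots, V2_LF-I over V2_LF, silks over ear, tassel over leaf and older over younger seed.

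The harvest date differed inside the internode, where replicate 1 was the single library of 25 November, so that its plant and its date cannot be told apart. This single library is assumed to vary like those of the other groups in the fit, and the internode values are those that chose the members, so nothing about the members is read from the counts that follow. On 28 November, 0 members were higher, against 0.486% of all genes (0 at an unadjusted p under 0.05, and 0 by DESeq2), and 1 (0.775%) was lower, against 0.159% of all genes. For Zm00001d015216 the level was 742 CPM on the first date and 176 and 177 CPM on the second, a log2 fold change of -2.05. For Zm00001d031152 the level was 1000 CPM on the first date and 169 and 204 CPM on the second. Both genes were selected on these same values, so no p-value is given for either.

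In the ear, leaf and tassel of the same dates the count of members on the lower side was above the background. On 28 November, 32 members (24.8%) were lower than on 25 November, against 1.89% of all genes, and 2 (1.55%) were higher, against 1.09% of all genes. The median log2 fold change was -0.35 for the members and -0.03 for all genes, over 3 libraries of the first and 6 of the second date. All 3 libraries of the first date were replicate 1 of their tissue, and the fit treats them as independent. Whether they share a plant was not known, so plant and date cannot be told apart here either. With a block for the replicate number in the fit, 8 members (6.202%) were lower, against 0.307% of all genes. The count of 32 also depended on single libraries, most of all on the leaf of 25 November. Without PS_LF replicate 1, 2 members (1.55%) were lower, against 0.0203% of all genes, and 0 were higher by edgeR (3 at an unadjusted p under 0.05), against 0.0271% of all genes, and the members' median was -0.22. At an unadjusted p under 0.05, 53 members (41.1%) were lower with that library, against 10.3% of all genes, and 33 (25.6%) without it, against 4.91%. Without PS_LF replicate 2, 13 members were lower by adjusted p (10.1%, against 0.590% of all genes) and without PS_LF replicate 3, 12 were (9.30%, against 0.532%). Without PS_TAS replicate 1, 13 were lower (10.1%, against 1.84% of all genes) and without PS_TAS replicate 2, 20 were (15.5%, against 1.41%).

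By tissue, replicate 1 was the highest of the 3 libraries for 93 of the 125 members with a single highest PS_LF library (74.4%), against 53.0% of all genes with a read in the leaf. In the tassel this held for 61 of 128 members (47.7%), against 22.4% of all genes, and in the ear for 39 of 124 (31.5%), against 34.8% of all genes. The members took 0.210%, 0.135% and 0.119% of the reads in PS_LF replicates 1, 2 and 3, and 5, 17 and 20 of them had no read there. These shares were not tested against each other. The depths of the 3 leaf libraries were 34.9, 26.9 and 22.4 M reads, and the part of depth, plant and date in this difference was not tested. The 4 genes left out by name summed to 71.7, 11.9 and 10.3 CPM in PS_LF replicates 1, 2 and 3 and to 100.4, 17.5 and 17.2 CPM in those of the tassel.

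**Figure D5:**
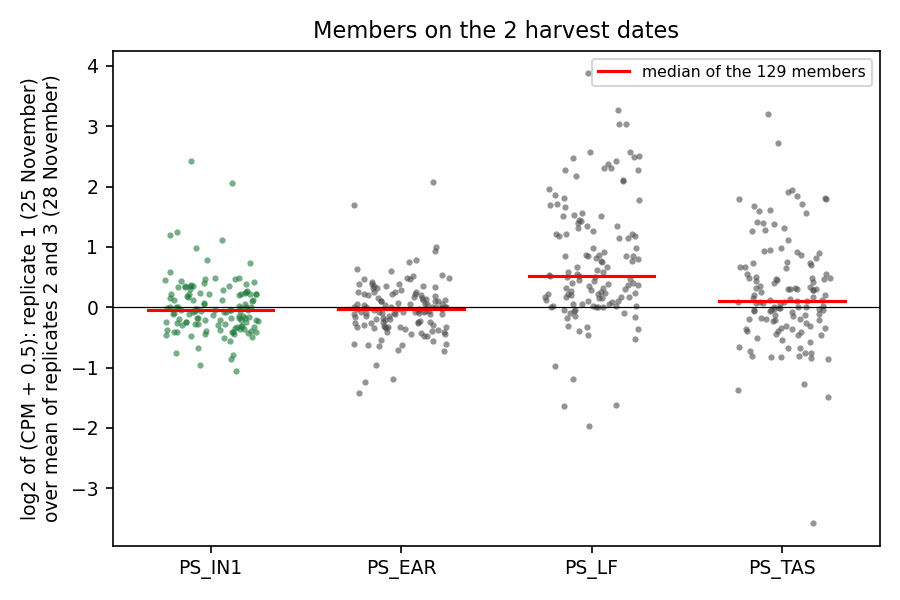
log2 ratio of replicate 1 (25 November) to the mean of replicates 2 and 3 (28 November), each as CPM + 0.5, for the 129 members in 4 tissues at pollen shed, with the median of the members in red. The median is 0.52 in PS_LF and 0.11 in the tassel, and -0.04 and -0.05 in the ear and the internode.

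The 32 members lower on 28 November were called on these same leaf, tassel and ear libraries, so their levels there describe the call and add no support. Replicate 1 was above both others in the leaf for 32 of them, in the tassel for 28, in the ear for 12 and in the internode for 8. Their median levels in PS_LF replicates 1, 2 and 3 were 8.02, 1.04 and 1.00 CPM, and in the tassel 8.73, 3.29 and 4.02 CPM. In the ear they were 3.20, 3.19 and 2.45 CPM.

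Zm00001d045101 had 4.24, 0.149 and 0 CPM in PS_LF replicates 1, 2 and 3 and 11.3, 1.97 and 3.71 CPM in those of the tassel (-2.77 ± 0.41, edgeR adjusted p = 0.000751). Zm00001d004555 had 2.49, 0 and 0 CPM in the leaf and 4.86, 0.788 and 1.47 CPM in the tassel (-3.12 ± 0.53, edgeR adjusted p = 0.00285). Zm00001d024946 had 2.72, 0.112 and 0.134 CPM in the leaf and 5.12, 0.867 and 1.25 CPM in the tassel (-2.93 ± 0.49, edgeR adjusted p = 0.00236). All 3 were highest in replicate 1 of both organs and at 0.310 CPM or less in every ear library. Without PS_LF replicate 1 the edgeR adjusted p was 0.0474 for Zm00001d045101, 0.0949 for Zm00001d004555 and 0.117 for Zm00001d024946.

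The other member lower without that leaf library was Zm00001d049303, whose next tissue was the leaf. It had 659, 448 and 634 CPM in the internode, 106, 46.9 and 48.3 CPM in the leaf, 43.2, 4.18 and 4.34 CPM in the tassel and at most 0.0264 CPM in the ear, with a log2 fold change of -3.51 ± 0.32 (SE) and an edgeR adjusted p of 3.90e-06 in that fit. It was named after its values were seen. The opposite direction was taken by Zm00001d042258, with 2.52, 11.01 and 11.8 CPM in the leaf and 1.61, 7.37 and 3.49 CPM in the tassel (1.67 ± 0.31, edgeR adjusted p = 0.00483, and 0.236 without PS_LF replicate 1).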

How the data were processed

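Poly(A)-selected, stranded libraries (TruSeq) of 33 samples were sequenced. The authors used Trimmomatic for trimming, filtered out ribosomal reads by sortMeRNA, and used STAR for alignment to B73 RefGen_v4. The STAR version is not given in the sources used here, nor is the annotation release. They deposited raw counts per gene in 3 columns, unstranded, forward and reverse, and the reverse counts were used. Rows that name no gene were left out (median 12.1% of reads, 10.3 to 20.2).

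CPM is the reverse count divided by the library's sum over genes. Genes were tested with edgeR version 4.0.16 in R version 4.3.3 (TMM, filterByExpr with a minimum count of 10 and total of 15, quasi-likelihood F test, Benjamini-Hochberg over 28997 genes) in 1 fit of all libraries, with 22 residual degrees of freedom, or 20 with 2 harvest terms. DESeq2 version 1.42.0 was an alternative. The standard error is the log2 fold change divided by the square root of F. The script was tested on simulated data. For hypocotyl against roots, 58% of simulated log2 changes of 1 were called in the right direction, and 100% of changes of 2. Smaller changes can thus be missed. The floor of a tissue without reads was 3 reads over its 3 libraries, which covers counting error only. The internode libraries differed beyond sampling noise (chi-square per degree of freedom 24.2 to 55.9). The label of the younger seed gives 12 days after pollination, which is used here, though the methods of the study differ on it.

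The members and the lists were chosen with earlier results of these data known. Members named were the 12 most abundant, the 8 with the highest ratio, the 3 nearest each threshold on either side, the 3 most and least variable in the internode, and, per test, up to 3 called in each direction with the largest change and a mean of at least 1 CPM. Marker lists by gene symbol (secondary wall, green leaf, pollen, endosperm, meristem, root) matched no ID and were not used. Reference names (RefSeq, NAM-5.0) matched 0 of 129 members.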

Additional observations from a re-analysis of the deposited data

Results flagged for a closer look

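For Zm00001d002940, the reads on the strand opposite to the gene came to 43.0% of those on its own strand in the internode. The median over the members was 0.169%, and the next highest was 4.66%. In the other 30 libraries they outnumbered its own reads, 38555 against 3739. All 129 members, this gene included, also met the rule on the unstranded counts.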

How the results depend on the processing

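The number of genes that met the rule was 94 with TMM library sizes (87 of them among the 129, or 67.4%), 129 on unstranded counts, 252 with a ratio of 2, 49 with a ratio of 5, 144 with a floor of 10 CPM, 96 with a floor of 50 CPM, 173 with tissue means in place of single libraries, and 139 to 152 without an internode replicate. It was 144 without PS_LF replicate 1, an alternative chosen after seeing the data, as was the scaling by library size alone. That scaling left 10 members lower in V2_LF-I and 18 higher and 54 lower in the older seed. It shifts the median of all genes by construction, as RLE size factors and DESeq2 did between tassel and leaf (0.15).

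Replicate numbers were not taken to pair the samples, since none of the 5 pairs of tissues tested, nor any pair among internode, ear, leaf and tassel, had correlations of deviations over 0.1 in all 3 numbers. With the replicate block, 1 member (0.775%) was higher and 8 (6.202%) lower on 28 November in ear, leaf and tassel, against 0.207% and 0.307% of all genes. Every library of 25 November is a replicate 1 there. Without the filter on low counts and with RLE size factors, 1 was higher there. In the 5 pairs of tissues the block kept the counts within 1.5 times of those reported. Without internode replicate 1 no library of the first date is left in the internode. With 1 library at a time left out of ear, leaf and tassel, 0 to 4 members were higher and 2 to 40 lower there (13 without PS_LF replicate 2, 12 without PS_LF replicate 3, 13 without PS_TAS replicate 1, 20 without PS_TAS replicate 2). A test of the difference between the date effects of the internode and the other 3 tissues was also run after seeing the data and is not reported, since it uses the values that chose the members. In the 5 pairs of tissues the counts stayed within 1.5 times of those reported in each such fit. Where not stated, the cause was not tested.

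Of 427 values of named members under an alternative, 417 stayed on their side of the threshold and 10 did not, and none changed direction. Those 10 belong to Zm00001d031152 in silks and ear, to Zm00001d024946, Zm00001d004555 and Zm00001d042258 for the harvest date in ear, leaf and tassel, and to Zm00001d015216. The last is counted for the date within the internode. Its p-values in that test are not given above, since the test uses the values that chose the members. The date values rest on 1 library of the first date per tissue, and some members had few reads in these tissues. Why these values crossed the threshold was not tested.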
